A study of Mus musculus with 9 samples.

Results

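Genes that mark Sertoli cells and build the blood-testis barrier were followed in mouse testis with and without Pfn3, the gene of the spermatid actin-binding protein profilin 3. The list of 36 genes was set by name, and 35 of them are among the 38674 genes of the table. The expression of transferrin (Trf) was not analysed here. The libraries came from 3 wild-type (Pfn3+/+, WT), 3 heterozygous (Pfn3+/-, Het) and 3 homozygous mutant (Pfn3-/-, KO) male mice of strain C57BL/6, with the libraries of a genotype taken as separate animals. RNA was taken from whole testis freed of the tunica albuginea and sequenced as QuantSeq 3′ end tags. Pfn3 mutants were made by injecting Cas9 mRNA and guide RNAs into zygotes, which gave several lines with frame-shifting deletions of different sizes, and the line of the sequenced animals is not given in the sources used here. The males were sexually mature, 2 to 6 months old, with no age given per animal. No Cre or other transgene was involved.

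Sertoli cells are the somatic nurse cells of the seminiferous tubule. They hold germ cells at every stage, answer to follicle-stimulating hormone and testosterone, and secrete growth factors, carriers and protease inhibitors. Neighbouring Sertoli cells join through tight junctions, gap junctions, adherens junctions and actin-rich ectoplasmic specializations, and this blood-testis barrier shields meiotic and haploid germ cells from the circulation.

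The values are normalized counts, that is, gene counts divided by 1 size factor per library. Reads on genes ranged from 3375546 to 4287335 per library, and 3 reads, taken as the floor of detection, corresponded to 2.58 to 3.71 normalized counts. Testis is mostly germ cells, so fewer cells of a type and less RNA per cell cannot be told apart in these bulk samples. Pfn3 itself was at 592, 383 and 373 in WT, 136, 339 and 326 in Het and 74.7, 215 and 279 in KO (limma log2 fold change of KO against WT -1.41 ± 0.52 SE, adjusted p = 0.610), so every KO animal was below every WT animal, Het and KO animals overlapped (Het 1 was below KO 2 and KO 3), and the transcript was present in every KO animal. WT 1 and Het 1 stood apart by detection. In WT 1, 366 genes were at 0 although at least 5 of the other 8 libraries had 20 or more, in Het 1 this held for 222 genes and in KO 2 for 87, against 16 to 68 in the rest.

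Most Sertoli cell genes of the list were detected: 33 of the 35 were above 0 in at least 1 animal, and 32 were at 10 or more in 3 animals or more. The exceptions are defining genes. Fshr, the receptor for follicle-stimulating hormone, and Amh, anti-Müllerian hormone, which Sertoli cells make before puberty, had 0 reads in all 9 libraries, so each was below the floor of 3 reads in every animal. Fshr, Amh, Gdnf and Ocln were the members counted on annotated genes, and all others were counted on loci of the authors' merged assembly. Genes of the epididymis were nearly absent, with 5 of 6 at 0 in every library.

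Promoter sequences are shown for 5 members: Amhr2, which was near 0 in some animals of each genotype, Kitl and Ocln, whose KO values all lay above the WT values, and Cst9 and Cldn11, a secreted and a barrier gene present in every library. Each is the 300-base RefSeq window around the gene start on build GRCm38.p6, printed 5′ to 3′ on the gene's strand, and capitals mark GATA or its reverse complement TATC, the core bound by GATA factors such as GATA4 and GATA1.
Amhr2, chr15:102445117-102445416, plus strand: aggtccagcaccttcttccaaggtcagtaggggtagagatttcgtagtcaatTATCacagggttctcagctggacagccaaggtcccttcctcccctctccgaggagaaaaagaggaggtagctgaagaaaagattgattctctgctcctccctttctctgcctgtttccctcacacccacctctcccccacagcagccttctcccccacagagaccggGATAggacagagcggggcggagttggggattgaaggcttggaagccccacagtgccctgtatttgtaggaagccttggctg
Kitl, chr10:100015571-100015870, plus strand: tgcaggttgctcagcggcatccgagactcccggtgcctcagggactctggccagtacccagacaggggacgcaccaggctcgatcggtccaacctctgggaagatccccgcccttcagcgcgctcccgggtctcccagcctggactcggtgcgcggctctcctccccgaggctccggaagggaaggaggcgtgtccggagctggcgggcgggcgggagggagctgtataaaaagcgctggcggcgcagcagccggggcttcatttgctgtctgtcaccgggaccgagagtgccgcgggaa
Ocln, chr13:100552669-100552968, minus strand, the first of 2 starts: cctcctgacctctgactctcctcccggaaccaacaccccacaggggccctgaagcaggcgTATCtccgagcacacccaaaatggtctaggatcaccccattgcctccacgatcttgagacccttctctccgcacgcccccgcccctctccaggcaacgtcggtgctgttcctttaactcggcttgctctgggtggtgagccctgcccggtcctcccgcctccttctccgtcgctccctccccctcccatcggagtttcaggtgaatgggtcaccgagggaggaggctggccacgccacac
Cst9, chr2:148834897-148835196, plus strand: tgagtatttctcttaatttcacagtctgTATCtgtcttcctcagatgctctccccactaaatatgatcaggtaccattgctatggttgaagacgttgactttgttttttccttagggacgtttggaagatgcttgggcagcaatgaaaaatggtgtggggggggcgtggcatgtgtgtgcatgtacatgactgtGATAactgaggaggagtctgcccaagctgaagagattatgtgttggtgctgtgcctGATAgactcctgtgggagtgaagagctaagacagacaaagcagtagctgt
Cldn11, chr3:31149670-31149969, plus strand: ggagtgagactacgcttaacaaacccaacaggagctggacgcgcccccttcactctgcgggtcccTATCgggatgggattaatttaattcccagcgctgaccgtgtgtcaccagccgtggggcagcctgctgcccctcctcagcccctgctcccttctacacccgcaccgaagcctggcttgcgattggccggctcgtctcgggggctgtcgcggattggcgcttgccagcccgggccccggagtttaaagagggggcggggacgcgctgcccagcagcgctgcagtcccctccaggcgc
GATA or TATC was found 2 times in the Amhr2 window, 3 times in that of Cst9, 1 time each in those of Cldn11 and Ocln and 0 times in that of Kitl. The window of the second Ocln start, not printed here, held it 0 times. RefSeq windows were matched for 23 of the 36 genes (27 windows), and 20 of the 27 held the motif (74.1%), as did 57.9% of all 32851 mouse windows. A nuclear receptor half-site of the NR5A1 kind, AAGGTCA or TGACCTT, was present in 1 of the 27, that of Amhr2, or 3.70% against 4.72% of all windows. A SOX core, ACAAAG or CTTTGT, was present in 4 of the 27, among them Cst9, or 14.8% against 18.7% of all windows. No matches of different motifs overlapped in the windows shown, and a match describes letters, not a bound site.

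The plot of all members by library gives the spread that any genotype difference has to be read against. Between the lowest and the highest of the 9 animals, 8 of the 32 genes reaching 10 in at least 3 animals differed by less than 2-fold, 12 by 2- to 4-fold, 6 by 4- to 8-fold, and 6 (Sox8, Wt1, Gata4, Rhox5, Amhr2 and Shbg) by more than 8-fold or down to 0.

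**Figure D1:**
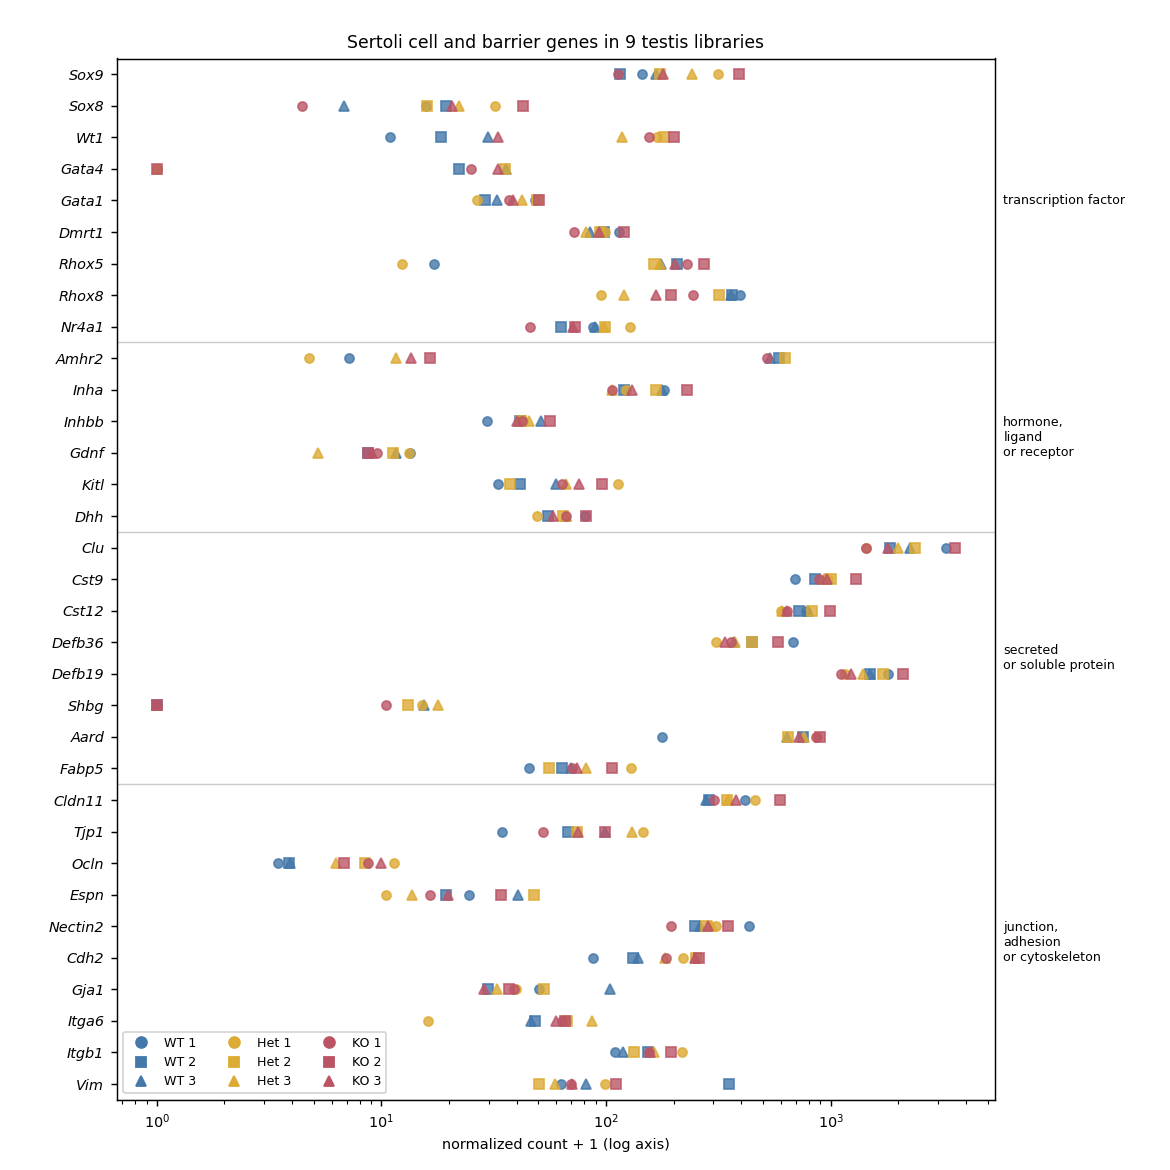
Normalized count + 1 (log axis) of the 33 members above 0, grouped by role, with 1 point per library (color for genotype, shape for replicate number). Most rows mix the 3 colors; in Wt1 and Cdh2 the 3 WT points lie to the left, in Rhox8 to the right, and Amhr2 splits into a low and a high set that each hold all 3 genotypes.

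The comparison of KO with WT asks whether loss of the spermatid protein goes with a change in Sertoli cell transcripts. In the fit by limma, 0 of the 30 members tested passed the threshold (adjusted p under 0.05 and log2 fold change over 1.5 in either direction), which 0.0352% of the 14223 genes tested did. The smallest adjusted p of a member was 0.570. At an unadjusted limma p under 0.05, 3 members were higher in KO (Wt1, Cdh2 and Kitl), where 3.04% of all genes were higher, and 1 was lower (Rhox8), where 5.03% of all genes were lower. All 3 KO animals lay above all 3 WT animals for 5 of the 30 members (Wt1, Kitl, Fabp5, Cdh2 and Itgb1), against 9.41% of all genes, and below them for 1 (Rhox8), against 10.5%. By edgeR on the recovered reads 0 members were called, where edgeR called 0.0352% of all genes, and by DESeq2 1 was (Wt1), where DESeq2 called 0.675% of all genes. The median log2 fold change of the members was 0.12, with 17 higher and 13 lower, beside 0.02 over all genes.

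Heterozygotes were compared with the same 3 WT animals, so the comparisons of KO and Het with WT share their controls. Of the 32 members tested, limma called 0 (0% of 14216 genes called), and the smallest adjusted p was 0.544. Unadjusted p values under 0.05 were obtained for 3 members higher in Het (Wt1, Cdh2 and Sox9; 1.46% of all genes) and 1 lower (Rhox8; 1.89%). The Het and WT animals did not overlap for 4 members higher in Het (Sox9, Wt1, Nr4a1 and Cdh2; 6.76% of all genes) and 1 lower (Rhox8; 6.49%). edgeR called 0 members (0% of all genes) and DESeq2 1 (Wt1; 0.218% of all genes), and the median log2 fold change was -0.08, with 15 higher and 17 lower, beside 0.01 over all genes.

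KO against Het asks whether the second lost allele adds a difference. Of 31 members tested, limma, edgeR and DESeq2 each called 0, where limma called 0.0558%, edgeR 0.0349% and DESeq2 0.265% of the 14343 genes. In limma 0 members were higher in KO at an unadjusted p under 0.05 (1.74% of all genes) and 2 were lower (Nr4a1 and Shbg; 1.82%). KO animals lay above all Het animals for 1 member (Rhox5, 5.12% of all genes) and below them for 2 (Nr4a1 and Shbg, 4.9%). Shbg met the filter in this comparison through the Het animals alone, the group where it was higher. Its place in both counts is therefore no support for a difference. The median log2 fold change was 0.10, with 21 higher and 10 lower, beside 0.00 over all genes.

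**Figure D2:**
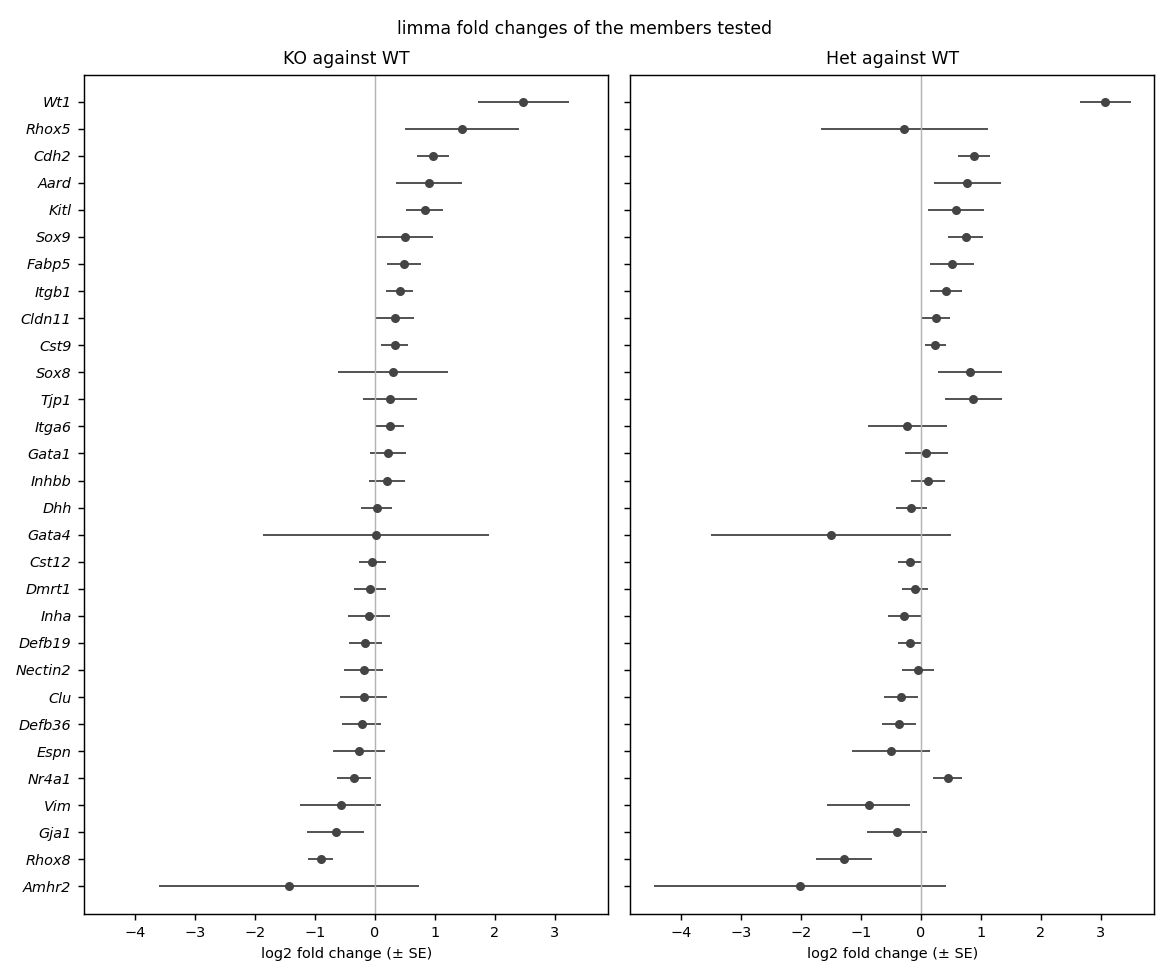
Log2 fold changes by limma with their standard errors for the members tested in KO against WT, in that comparison (left) and in Het against WT (right), sorted by the left panel. Wt1 is highest in both panels at 2.48 and 3.07, Rhox8 is below 0 in both at -0.90 and -1.28, and the wide bars belong to Amhr2, Gata4 and Rhox5, which varied most between animals.

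Transcription factors of Sertoli cell identity held the largest difference. Wt1 encodes the zinc-finger factor needed to keep Sertoli cells in their fate (chr2:105126529-105173616, plus strand, on GRCm38). It was at 9.9, 17.4 and 29.0 normalized counts in WT, 168, 180 and 116 in Het and 155, 199 and 32.2 in KO. All 3 Het animals and KO 1 and KO 2 were several times higher than every WT animal, while KO 3 was just above the highest WT animal. The limma log2 fold change was 2.48 ± 0.76 (SE, n = 3 per group; adjusted p = 0.610) for KO against WT and 3.07 ± 0.42 (adjusted p = 0.544) for Het against WT. DESeq2 gave 2.80 with an adjusted p of 0.0320 and 3.04 with an adjusted p of 1.63e-06. The DESeq2 call in Het against WT held without each animal in turn, with adjusted p of at most 0.000844, whereas that in KO against WT was lost without WT 1, WT 2, KO 1 or KO 2, with adjusted p up to 0.454. Wt1os, which starts 19 bases away on the opposite strand, was at 20.3 to 51.3 in the 9 animals, with WT at 43.3, 26.0 and 20.3, so its values overlapped between genotypes. The other counted genes within 20 kb (Gm27715, Gm27538, Gm27636 and Gm27308) were at 0 to 3.86.

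Rhox8, an X-linked homeobox gene of Sertoli cells, was the member with the smallest unadjusted p in KO against WT. It was at 395, 362 and 360 in WT, 93.5, 318 and 120 in Het and 244, 194 and 166 in KO. Every WT animal was above every other animal. The log2 fold change was -0.90 ± 0.21 (SE, limma adjusted p = 0.570) for KO and -1.28 ± 0.46 (adjusted p = 0.779) for Het, and leaving out any 1 animal of the KO and WT groups kept it between -1.05 and -0.77. Its neighbour on the X chromosome, Rhox5, the best known androgen-driven gene of Sertoli cells, behaved otherwise. Rhox5 was at 16.1, 206 and 174 in WT, 11.3, 163 and 173 in Het and 228, 273 and 201 in KO. WT 1 and Het 1, the libraries with most genes missing, were the only low ones. The log2 fold change of KO against WT was 1.45 ± 0.95 (limma adjusted p = 0.643) with WT 1 and 0.29 without it. Rhox6, within 20 kb of Rhox5, was at 0 in all libraries.

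Sox9 and Sox8 encode SOX factors of the testis-determining program. Sox9 was at 144, 114 and 166 in WT, 314, 173 and 240 in Het and 112, 391 and 178 in KO. All Het animals lay above WT (log2 fold change 0.75 ± 0.29, limma adjusted p = 0.779), and KO held both the lowest and the highest animal (0.50 ± 0.47, adjusted p = 0.686). Sox8 was at 14.9, 18.3 and 5.8 in WT, 31.2, 14.9 and 21.2 in Het and 3.4, 41.6 and 19.7 in KO, with all 3 genotypes overlapping. At its 5′ end it overlaps the 5′ end of 2810468N07Rik on the opposite strand, which was at 0 to 19.3. Lmf1, also within 20 kb of Sox8, was at 171 to 308.

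Gata4, the main GATA factor of testicular somatic cells, was at 0, 21.2 and 34.8 in WT, 0, 34.5 and 0 in Het and 24.0, 0 and 32.2 in KO. Animals at 0 occurred in every genotype, and the genotypes overlapped fully (log2 fold change of KO against WT 0.02 ± 1.88, limma adjusted p = 0.997). Neil2, within 20 kb, was also at 0 in the 4 libraries that had Gata4 at 0 (WT 1, Het 1, Het 3 and KO 2) and in WT 2, and was at 4.8 to 9.3 in the others, while Fdft1 on the other side of Neil2 was at 661 to 1179. Nr4a1, an immediate-early nuclear receptor, was at 86.7, 61.7 and 87.9 in WT, 127, 97.8 and 97.4 in Het and 44.7, 71.6 and 70.6 in KO. Every Het animal was above every WT and KO animal, with a log2 fold change of KO against Het of -0.80 ± 0.25 (SE, limma adjusted p = 0.973) and of KO against WT of -0.35 ± 0.29 (adjusted p = 0.665). Gata1 and Dmrt1, a GATA factor and a sex-maintenance factor that germ cells also use, ranged over the 9 animals from 25.5 to 49.3 and from 71.3 to 119.

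**Figure D3:**
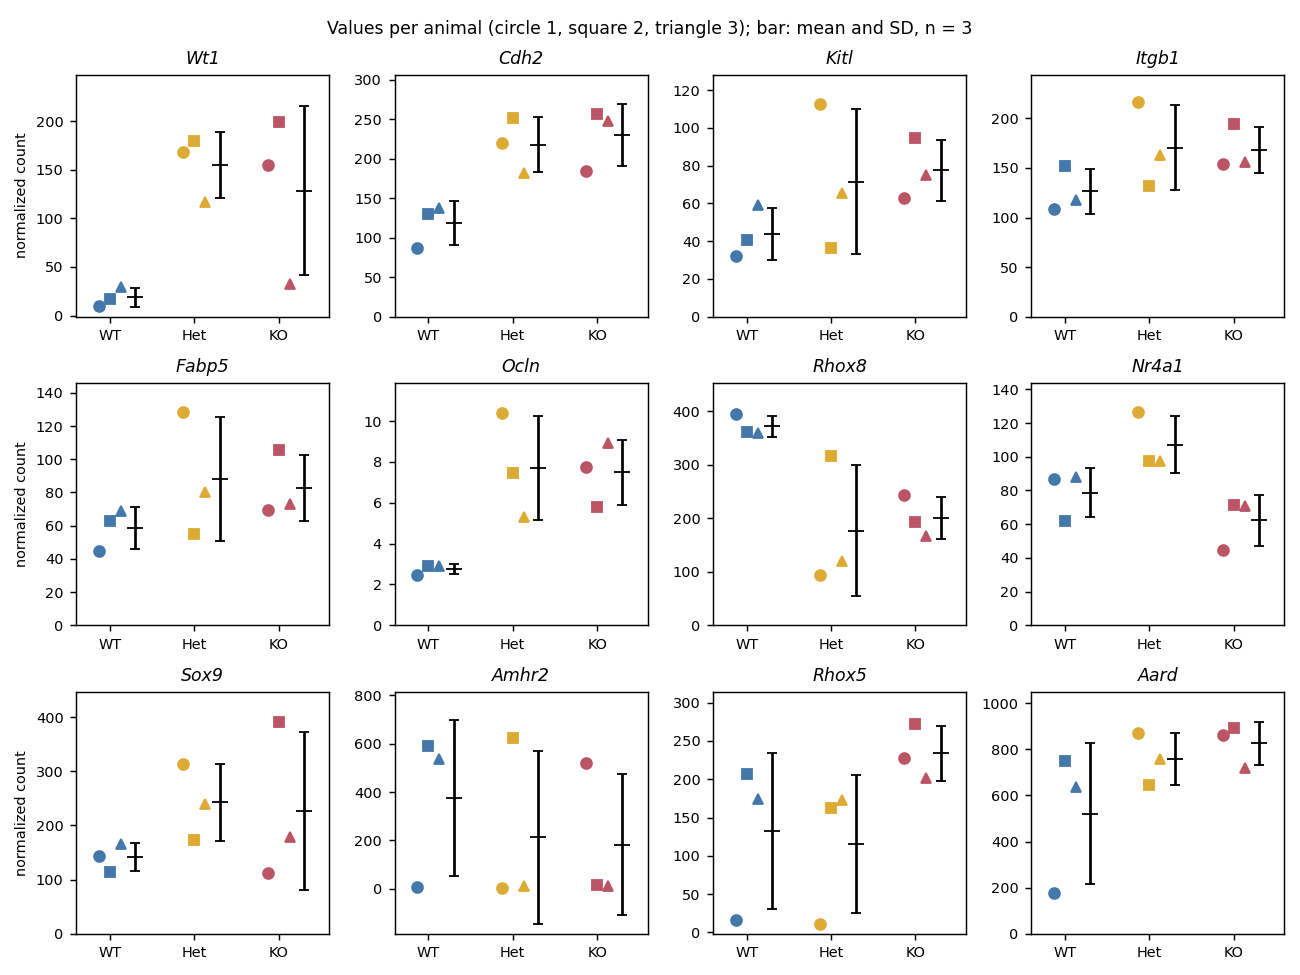
Normalized counts per animal for 12 members (x axis genotype, y axis linear), with the mean and SD of 3 animals in black. In Wt1, Cdh2 and Ocln every KO and Het animal is above every WT animal, in Rhox8 every one is below, and in Amhr2 and Rhox5 the low animals do not follow genotype.

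Hormones, ligands and receptors carry the signals between Sertoli cells, germ cells and the pituitary. Amhr2, the receptor that binds anti-Müllerian hormone (chr15:102445367-102454633, plus strand), was at 6.2, 589 and 535 in WT, 3.8, 624 and 10.6 in Het and 520, 15.5 and 12.5 in KO. The highest animal exceeded the lowest 165-fold. No animal lay between 15.5 and 520, and each genotype had animals on both sides, so the log2 fold change of KO against WT was -1.43 ± 2.17 (limma adjusted p = 0.794). DESeq2 gave Amhr2 no p-value in any comparison, so the DESeq2 counts of members called leave it out. The 4 libraries with Gata4 at 0 were among the 5 with low Amhr2 (WT 1, Het 1, Het 3, KO 2 and KO 3). In KO 3, Gata4 was at 32.2. This overlap was singled out after the values were seen, and a link between the genes was not tested. None of the counted genes within 20 kb of Amhr2 followed its split. Sp1 was at 94.6 to 248, Prr13 at 7.4 to 62.4 with its low value in Het 2, Pcbp2 at 771 to 1773, Gm26518 at 0 to 3.4 and Gm24128 at 0. What set the 2 levels of Amhr2 was not tested.

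Kitl, the stem cell factor that supports KIT-bearing spermatogonia, was at 32.2, 40.5 and 58.9 in WT, 112, 36.3 and 65.6 in Het and 62.7, 94.8 and 75.1 in KO. KO animals were all above WT, though KO 1 and WT 3 were close, and Het spanned both groups. The log2 fold change of KO against WT was 0.83 ± 0.31 (SE, limma adjusted p = 0.610) and ranged from 0.63 to 1.06 when 1 animal was left out. Gdnf, the niche factor for spermatogonial stem cells, was at 12.4, 7.7 and 10.6 in WT, 12.3, 10.2 and 4.2 in Het and 8.6, 7.7 and 8.0 in KO, or 4 to 13 reads per library. The groups overlapped, and KO against WT was not tested at this depth.

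Inha and Inhbb encode the subunits of inhibin B, which feeds back on the pituitary. Inha was at 180, 120 and 176 in WT, 122, 167 and 105 in Het and 105, 229 and 130 in KO. Inhbb was at 28.5, 40.5 and 50.2 in WT, 41.6, 41.0 and 44.4 in Het and 41.2, 55.1 and 39.3 in KO. Both overlapped between all genotypes, with log2 fold changes of KO against WT of -0.09 ± 0.35 and 0.20 ± 0.30 (limma adjusted p = 0.930 and 0.790). Dhh, the hedgehog ligand that Sertoli cells send to Leydig and peritubular cells, was at 79.2, 54.0 and 65.7 in WT, 48.2, 63.3 and 65.6 in Het and 65.3, 80.3 and 57.2 in KO, and differed least of the 3 genes (0.03 ± 0.25, adjusted p = 0.971).

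Secreted and soluble proteins are the main export of Sertoli cells, and 0 of the 7 tested passed the limma threshold in KO against WT, also at an unadjusted p under 0.05. Over all genes the shares were 0.0352% at the threshold, and 3.04% higher and 5.03% lower at that unadjusted limma p. Clu, the chaperone clusterin, was at 3259.9, 1839.7 and 2248 in WT, 1436, 2365 and 2003 in Het and 1435, 3565 and 1793 in KO. Cst9, a testis cystatin, was at 693, 847 and 944 in WT, 971, 1007 and 934 in Het and 884, 1300.2 and 963 in KO. Both overlapped between KO and WT, with log2 fold changes of -0.19 ± 0.39 and 0.33 ± 0.22 (limma adjusted p = 0.855 and 0.643). The related cystatin Cst12 ranged from 602 to 996 over the 9 animals, and the beta-defensins Defb36 and Defb19 from 309 to 676 and from 1117 to 2109.9.

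Shbg, the gene of androgen-binding protein, was at 0, 0 and 14.5 in WT, 14.2, 12.1 and 16.9 in Het and 9.4, 0 and 0 in KO. All Het animals had it and 2 animals of each other genotype did not. The limma log2 fold change of KO against Het was -2.80 ± 1.07 (adjusted p = 0.973), in a test that Shbg entered through the Het animals alone. Of its neighbours within 20 kb, Sat2 and Fxr2 were also at 0 in WT 1, with Fxr2 at 276 to 551 in the other 8 libraries, Atp1b2 was at 28.3 to 124 and Mir467f at 0 to 0.967. Fabp5, a fatty acid binding protein, was at 44.6, 62.7 and 68.6 in WT, 128, 54.9 and 80.4 in Het and 69.6, 105 and 73.3 in KO. KO 1 was just above WT 3, and the log2 fold change was 0.49 ± 0.28 (SE, limma adjusted p = 0.632). Aard, singled out after its values were seen, was at 176 in WT 1 and at 638 to 893 in the other 8 libraries.

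Junction, adhesion and cytoskeleton genes build the barrier. Cdh2, the adherens junction cadherin between Sertoli cells and germ cells, was at 86.7, 130 and 138 in WT, 220, 251 and 182 in Het and 185, 257 and 249 in KO. Every Het and KO animal was above every WT animal. The log2 fold change was 0.97 ± 0.27 (SE, n = 3 per group; limma adjusted p = 0.610) for KO and 0.89 ± 0.26 (adjusted p = 0.779) for Het, and leaving out 1 animal gave 0.76 to 1.12 for KO. Itgb1, the beta integrin of adhesion sites, was at 109, 152 and 118 in WT, 216, 132 and 163 in Het and 154, 194 and 156 in KO. All KO animals were above WT, KO 1 only just above WT 2 (log2 fold change 0.41 ± 0.22, limma adjusted p = 0.629), and Het overlapped with WT.

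The tight junction genes proper differed less or were too low to test. Cldn11, the claudin that forms the Sertoli cell tight junction strands, was at 416, 287 and 278 in WT, 459, 345 and 349 in Het and 301, 594 and 379 in KO. Tjp1, the scaffold protein ZO-1, was at 33.4, 66.6 and 97.5 in WT, 146, 73.6 and 129 in Het and 51.5, 97.7 and 74.2 in KO. KO and WT overlapped for both (log2 fold changes 0.34 ± 0.32 and 0.26 ± 0.45, limma adjusted p = 0.684 and 0.825), and without KO 2 that of Cldn11 was 0.0711. Ocln, the tight junction protein occludin, was at 2.5, 2.9 and 2.9 in WT, 10.4, 7.4 and 5.3 in Het and 7.7, 5.8 and 8.9 in KO. These are 8 reads in WT, 24 in Het and 25 in KO, so all WT animals were at or under 3 reads and all others above. Summed over the animals the ratio was 2.71 for KO against WT, with an exact 95% interval of 1.19 to 6.96, and 2.81 for Het against WT, with an interval of 1.22 to 7.23. The intervals cover the counting error of the pooled reads only and leave out the spread between animals. They also take each read as a separate molecule, while the reads carry no molecular identifiers in the sources used here.

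The other junction members overlapped between KO and WT. The gap junction gene Gja1 ranged from 27.7 to 103 over the 9 animals, the nectin Nectin2 from 193 to 431, the actin bundler Espn from 9.4 to 46.6, and the integrin Itga6 from 15.1 to 85.7. Vim, the intermediate filament vimentin, was at 49.4 to 110 in 8 libraries and at 351 in WT 2, which was singled out after the values were seen.

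By role, the medians of the log2 fold changes of KO against WT were 0.22 for the 9 transcription factors tested (6 higher, 3 lower), 0.03 for the 5 hormones, ligands and receptors (3 higher, 2 lower), -0.04 for the 7 secreted proteins (3 higher, 4 lower) and 0.25 for the 9 junction genes (5 higher, 4 lower). These medians moved with single libraries: without KO 2 they were 0.0146 for the transcription factors (5 higher, 4 lower), -0.0989 for the hormones, ligands and receptors, -0.26 for the secreted proteins and 0.0384 for the junction genes, and without WT 1 they were 0.29, 0.0105, 0.0419 and 0.0673. The mean log2 level over 32 members was 6.61 ± 0.37 (SD, n = 3) in WT, 6.71 ± 0.29 in Het and 6.74 ± 0.18 in KO. KO thus exceeded WT by 0.14, Het exceeded WT by 0.11 and KO exceeded Het by 0.03, all less than the spread between animals. Without WT 1 the first difference was -0.06.

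The members also differed between animals of 1 genotype. KO 2 had the highest value for 16 of the 33 members above 0, among them 6 of the 9 transcription factors and 5 of the 8 secreted proteins, and the lowest for 2 (Gata4 and Shbg, tied at 0 with other libraries). Counting such ties in each library, WT 1 had the lowest value for 12, Het 1 for 10 and KO 1 for 7. The summed normalized counts of the members were 13115 in KO 2 and 8167 to 10428 in the other 8 libraries. In KO 2, 27 of 32 members exceeded the mean of KO 1 and KO 3 on the log2 scale, with a median difference over the 32 of 0.48. The 4 elongating spermatid genes moved the other way in that library, with a sum of 123388 in KO 2 and 179063 to 249362 elsewhere, as did the 7 round spermatid genes, with 3043 against 4979 to 8625. Their part in the member values was not tested. Without KO 2 the member median of KO against WT was -0.04 (15 higher, 15 lower), and 2 members in place of 4 had an unadjusted p under 0.05, as had 4.42% of all genes in that fit. With 2 KO animals left, 5 members lay above and 5 below all WT animals, against 14% and 14.7% of all genes. Without WT 1 the median was 0.05 and 3 members had such a p, against 8.88% of all genes, with 8 above and 2 below both WT animals left, against 14.7% and 17.5% of all genes.

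**Figure D4:**
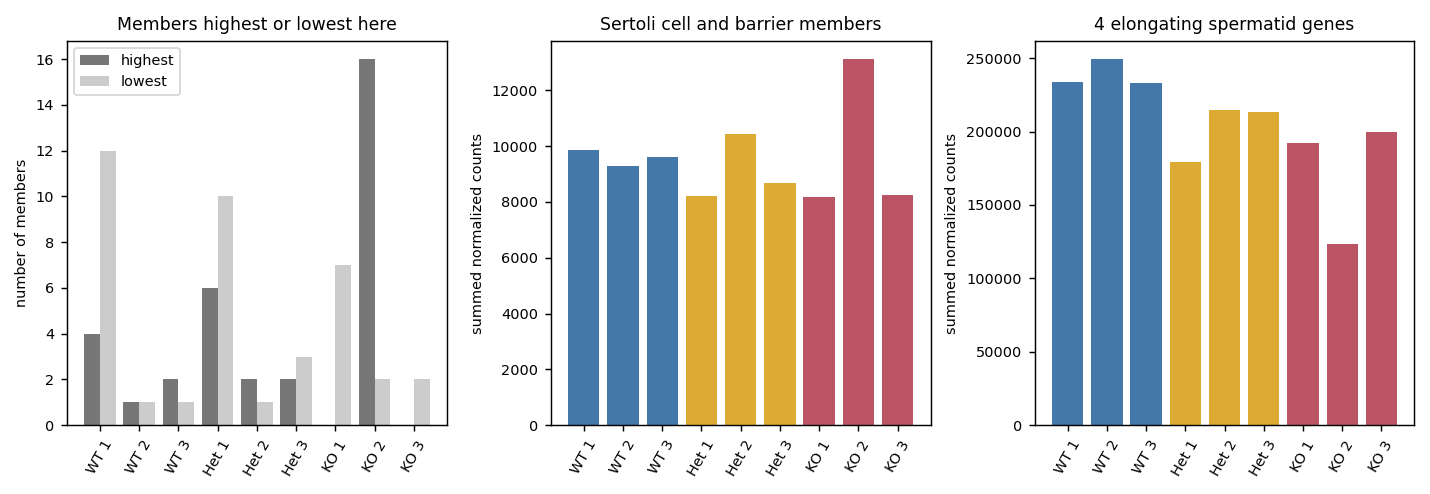
For each library, the number of the 33 members with their highest and lowest value there (left), the summed normalized counts of the members (middle) and those of 4 elongating spermatid genes (right). KO 2 has 16 of the highest values and the largest member sum, 13115, together with the smallest spermatid sum, 123388.

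Further genes of the same pathways were read from lists outside the members, where limma called 0.0352% of all genes in KO against WT. Of 15 further Sertoli cell genes tested in KO against WT, 6 were higher and 9 lower, with 0 called and a median log2 fold change of -0.06, which was 0.14 without WT 1 and -0.19 without KO 2. Of 23 further barrier and junction genes, 9 were higher and 14 lower, with 0 called and a median of -0.18, which was -0.0931 without WT 1 and -0.0478 without KO 2. Of 21 genes of FSH, androgen, inhibin and AMH signalling, 19 were higher and 2 lower, with 0 called and a median of 0.60. That list summed to 1132 in WT 1 and to 2512 to 3458 in the other libraries, and without WT 1 it had 15 higher, 6 lower and a median of 0.25. Creb1, the cAMP response factor downstream of the FSH receptor, was at 78.0, 86.8 and 78.2 in WT, 51.0, 88.5 and 97.4 in Het and 134, 167 and 152 in KO. All KO animals were above the other 6 (log2 fold change against WT 0.89 ± 0.20 SE, limma adjusted p = 0.529; DESeq2 adjusted p = 0.0536).

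Nr0b1, the nuclear receptor DAX1 that Sertoli cells and steroid-making cells use, was the gene of these lists called in a comparison. It was at 0, 22.2 and 31.9 in WT, 0 in all Het animals and 47.2, 65.8 and 42.9 in KO. KO was therefore above both other genotypes, and WT 1 had 0 reads like Het. It passed in KO against Het by limma (adjusted p = 0.0364) and by DESeq2 (adjusted p = 4.81e-07) and missed the threshold by edgeR (adjusted p = 0.132). The limma adjusted p was 0.0612 without Het 1, 0.0254 without Het 2 and 0.145 without Het 3. With Het at 0, Nr0b1 met the filter of 10 in 3 animals through the KO animals alone, the group where it was high. Without any 1 of those animals it was not tested, so these calls do not count as support for a difference. Against WT, limma gave an adjusted p of 0.617.

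Markers of other cells in the testis gave 0 called in KO against WT in each list, where limma called 0.0352% of all 14223 genes. With so few calls over all genes, 0 in a short list does not show that its genes were unchanged. Leydig cell genes had 4 higher and 3 lower of 7 tested (median 0.02), peritubular myoid cell genes 2 and 3 of 5 (-0.14), macrophage genes 3 and 2 of 5 (0.19), endothelial genes 2 and 0 of 2 (0.93), and erythrocyte genes 2 and 2 of 4 (-0.08). Among germ cells, spermatogonium genes had 4 higher of 4 (0.72) and spermatocyte genes 6 of 7 (0.65), whereas round spermatid genes had 6 lower of 7 (-0.73) and elongating spermatid genes 4 lower of 4 (-0.58). Without WT 1 the medians were 0.37 for endothelial, 0.38 for spermatocyte and -0.35 for round spermatid genes, -0.12 for macrophage and erythrocyte genes alike, -0.0328 for peritubular myoid and 0.0418 for Leydig cell genes. Without KO 2 they were -0.44 for round and -0.38 for elongating spermatid, -0.32 for macrophage, -0.46 for peritubular myoid, -0.00389 for Leydig cell and 0.000384 for erythrocyte genes. The spermatogonium median was 0.49 without WT 1 and 0.54 without KO 2, where 3 of its genes were tested. Sycp1, a synaptonemal complex gene, was at 1226, 984 and 1001 in WT and 2025, 1827 and 1579 in KO (limma adjusted p = 0.583). Its Het animals were at 1966, 454 and 1097 and overlapped with both groups. Prm2, the second protamine, was at 54683, 41373 and 39826 in WT and 25746, 16738 and 25543 in KO (adjusted p = 0.529). Its Het animals were at 21430, 38569 and 26112, below WT and overlapping with KO. Tnp2, a transition protein gene, was at 32383, 26072 and 27139 in WT and 17677, 12426 and 19613 in KO (adjusted p = 0.604), and Tssk1, a spermatid kinase gene, at 1805, 1607 and 1491 in WT and 1052, 558 and 914 in KO (adjusted p = 0.610). In Het, Tnp2 was at 15659, 23484 and 21285 and Tssk1 at 848, 1514 and 1024. Beside these spermatid values, mostly lower in KO, the Sertoli list members went both ways. Of the 30 tested, 17 were higher in KO than in WT and 13 were lower. The part of cell makeup in the member values was not tested.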

How the data were processed

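QuantSeq 3′ mRNA libraries of 9 testes were analysed, grouped by the genotype and replicate number in the labels. Per the study's methods and the submitters' processing notes, reads were trimmed with Trim Galore 0.4.5, aligned with HISAT2 2.1 to GRCm38 and assembled and counted per gene with StringTie 1.3.3, and pseudogenes were removed. The deposited signal values are gene counts that the authors divided by 1 size factor per library; 100% of the values were whole multiples of the value of 1 read, which gave back the reads. 0 columns of per-sample values were left unmapped. The labels number the libraries within a genotype; they were taken as 1 animal each, which the labels do not state, so p-values measure only the spread between these samples.

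The members and gene lists were chosen with earlier results of these data known. Values were compared with limma 3.58.1 (eBayes with trend) on log2(value + 1) for genes that reached 10 in 3 or more of the animals compared, with Benjamini-Hochberg adjustment over all genes tested, so fold changes are on that scale and are understated for low genes; each pair of genotypes was fitted alone. edgeR 4.0.16, DESeq2 1.42.0, other scalings, filters and pseudocounts and leaving out each animal were alternatives. The procedures were tested on simulated data. All members are accounted for. Per-animal values are given for members with an unadjusted p under 0.05 or a call by any tool in any comparison, for those not overlapping between KO and WT, for those over 8-fold apart between animals (with the counted genes within 20 kb in GENCODE M21), and for defining Sertoli genes; genes of other lists are named when called or at an unadjusted p under 0.01 in KO against WT.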

Additional observations from a re-analysis of the deposited data

How the results depend on the processing

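The count of members called was 0 in each comparison under every alternative run (edgeR, TMM factors, scaling by reads, no filter, a filter of 50, pseudocounts of 0.5 and 5, all 9 animals in 1 fit, no fold cutoff, and each animal left out), except under DESeq2, where it was 1 in KO against WT and 1 in Het against WT (Wt1, at 2.80 in KO against WT); the cause was not tested. Scaling by each library's reads instead of its size factor shifted the median of all genes to 0.22 in KO against WT and 0.16 in Het against WT, and the members' split in KO against WT from 17 higher and 13 lower to 23 and 7, with a member median of 0.32. On that scale Clu (0.0188), Cst12 (0.16), Defb19 (0.0430), Dmrt1 (0.13), Inha (0.11) and Nectin2 (0.0186) turned positive in KO against WT, all below the shift of all genes, and Cst12 was also positive by edgeR (0.0105) and DESeq2 (0.0103). The mean member level differed by -0.06 to 0.30 (KO against WT), -0.09 to 0.27 (Het against WT) and -0.08 to 0.19 (KO against Het) when 1 animal was left out.

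Leaving out 1 animal turned the sign in KO against WT for 14 of 30 members, none of them called, with these ranges: Clu -0.57 to 0.0871, Cst12 -0.26 to 0.0687, Defb19 -0.44 to 0.0159, Defb36 -0.46 to 0.0301, Dhh -0.11 to 0.17, Dmrt1 -0.26 to 0.11, Espn -0.57 to 0.0319, Gata4 -1.58 to 1.64, Inha -0.41 to 0.15, Inhbb -0.0121 to 0.39, Nectin2 -0.37 to 0.0673, Sox8 -0.42 to 1.22, Tjp1 -0.16 to 0.60 and Vim -1.05 to 0.20. The sign held but the value moved by over 1.5 times for Aard (0.25 to 1.29), Amhr2 (-3.53 to -0.35), Cldn11 (0.0711 to 0.56), Cst9 (0.17 to 0.44), Fabp5 (0.30 to 0.61), Gata1 (0.0656 to 0.43), Gja1 (-1.07 to -0.17), Itga6 (0.15 to 0.42), Nr4a1 (-0.51 to -0.13), Rhox5 (0.29 to 2.09) and Sox9 (0.0146 to 0.91). The deviations of animals with the same replicate number correlated at r from -0.14 to 0.19 over the genes tested, by pair. For animals with different numbers r was from -0.24 to 0.19. Of the same-number pairs, Het 1 with WT 1 (0.17) and Het 2 with WT 2 (0.19) were highest, and those of KO with WT were all below 0. With so few animals per genotype, these values cannot decide whether the numbers pair the samples. With the replicate number as a block 0 members were called in each comparison. The runs without WT 1 or KO 2 for the gene lists, and DESeq2 on Wt1 without each animal, were chosen after seeing the data.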
